A study of Mus musculus with 6 samples.

Results

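The genes described here are 35 genes of fatty acid synthesis and oxidation, listed by name as enzymes, carriers and a regulator of the pathway, with earlier results of these data known, in splenic type-2 conventional dendritic cells (cDC2s) labelled Arhgef1-/-. Of the 35 genes, 34 were found among the 14788 gene symbols of the count table, and Me1, which encodes cytosolic malic enzyme, was not analysed here. The filter on low counts left 33 of them among 11504 tested genes; Fads2 did not pass it. RNA sequencing covered 6 libraries of C57BL/6 spleen cDC2s, 3 from Arhgef1-/- cells and 3 from wild-type (WT) cells, with total counts of 8408325 to 11714365 in Arhgef1-/- and 8546267 to 10702215 in WT. Arhgef1 codes for a guanine nucleotide exchange factor of RhoA. The labels give no age, sex, treatment or targeting strategy, do not say whether the replicates were separate mice, and do not say whether the deletion was confined to dendritic cells, so p-values measure the spread between these libraries, which may be technical.

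Fatty acid synthesis starts in the cytosol, where ATP citrate lyase (Acly) and acetyl-CoA synthetase (Acss2) make acetyl-CoA, acetyl-CoA carboxylase (Acaca) turns it into malonyl-CoA, and fatty acid synthase (Fasn) builds palmitate. Elongases (Elovl genes) lengthen the chain and desaturases (Scd and Fads genes) add double bonds, and SREBP-1, encoded by Srebf1, is a transcription factor known for driving many of these genes. Oxidation runs the other way in mitochondria: acyl-CoA synthetases (Acsl genes) activate the fatty acid, carnitine palmitoyltransferases (Cpt1a, Cpt2) carry it in, and a cycle of dehydrogenases, hydratases and thiolases shortens it, passing electrons to the electron transfer flavoprotein. Dendritic cells are known to draw on fatty acid synthesis for membranes when they are activated or divide. For the results, 13 of the listed genes form a synthesis group (cytosolic synthesis, desaturation and elongation), 16 an oxidation group, and 6 a group of activation and uptake that serves both directions.

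In Arhgef1-/- cDC2s the called changes lay mostly in the synthesis group. Acly, Acaca, Fasn and the desaturase gene Scd2 rose, by 0.44 to 0.94 on the log2 scale, and the elongase gene Elovl5 and the peroxisomal oxidase gene Acox3 fell. Called genes had a Benjamini-Hochberg adjusted p under 0.05 in edgeR's quasi-likelihood test over all 11504 genes. Of the 33 tested members 4 were called higher and 2 lower, or 18.2%, against 9.67% of all tested genes called (5.09% higher and 4.58% lower). With total counts as the only scaling the members' calls were 5 higher and 1 lower. The number called higher was 1 without Arhgef1-/- library 2 or WT library 3 and 2 without WT library 1 or 2, and the number called lower was 0 without Arhgef1-/- library 2 or 3 or WT library 1 or 2. In the synthesis group 4 of 11 were called higher and 1 lower, with a median log2 fold change of 0.42. In the oxidation group 0 of 16 were called higher and 1 lower, with a median of -0.03 (0.0027 with total counts as scaling); at an unadjusted p under 0.05 the edgeR counts were 1 higher and 2 lower, DESeq2 called 1 higher and 1 lower, and limma-voom 0 and 1. In the activation and uptake group 0 of 6 were called by edgeR, DESeq2 or limma-voom, and 0 had an unadjusted p under 0.05. The median over all tested genes was 0.00032. Counted by libraries, 7 of the 33 members had every Arhgef1-/- value above every WT value and 4 had every value below, while over all tested genes 27.2% showed no overlap in either direction.

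**Figure D1:**
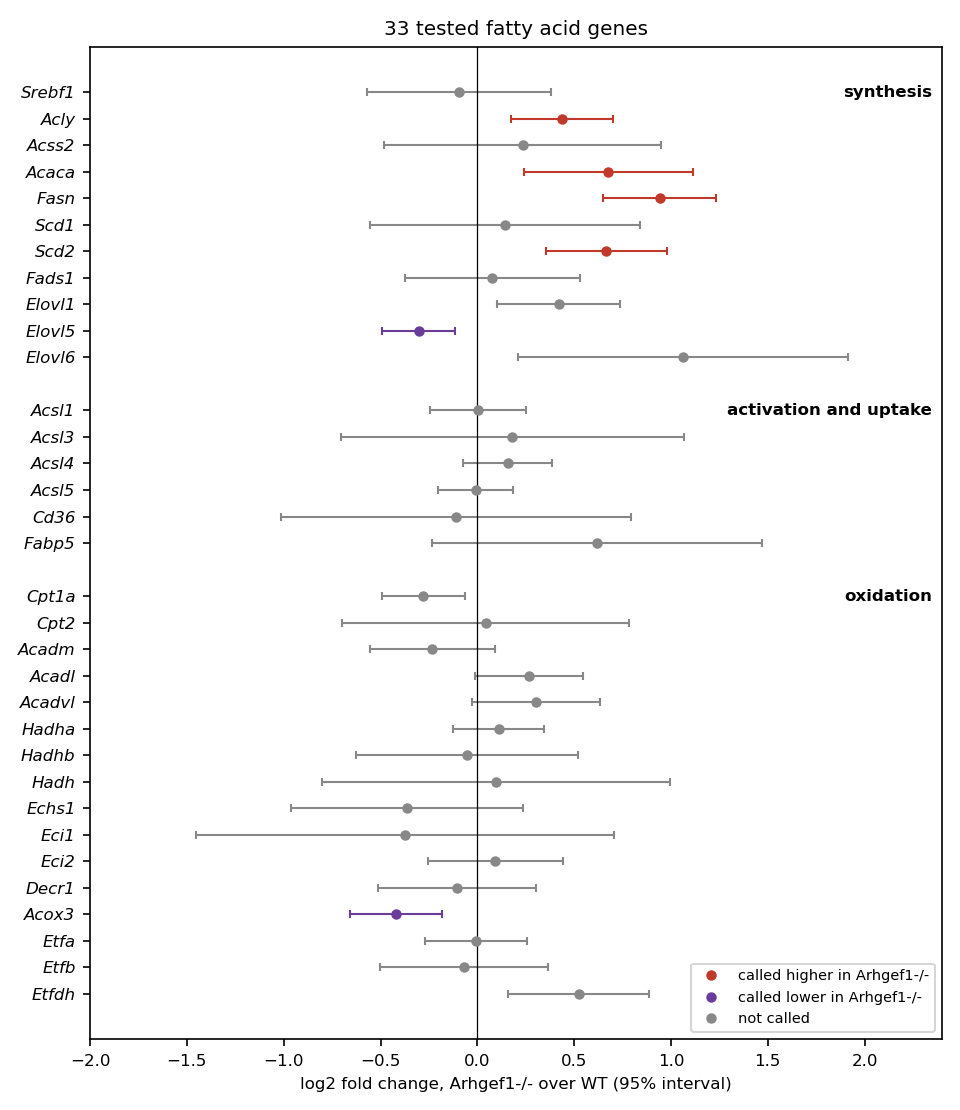
Log2 fold change (Arhgef1-/- over WT, horizontal axis) of the 33 tested members, ordered by role, with points for the edgeR estimate and bars for its 95% interval; colour marks the call. The 4 genes called higher all lie in the synthesis group, and the oxidation genes centre near 0 (median -0.03).

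Promoter sequence is shown for the 4 called members whose RefSeq window, 250 bases before to 50 after the start, lies at the annotated 5′ end of the gene, so that the sequence features of genes called in opposite directions can be set side by side. The windows are on GRCm38.p6 (mm10): Fasn at chr11:120824498-120824797 (minus strand), Acly at chr11:100527951-100528250 (minus strand), Elovl5 at chr9:77917115-77917414 (plus strand) and Acox3 at chr5:35582784-35583083 (plus strand). Each is printed 5′ to 3′ on the strand of the gene, and capitals mark CCAAT boxes (CCAAT or its complement ATTGG) and GC boxes (GGGCGG or its complement CCGCCC).
Fasn: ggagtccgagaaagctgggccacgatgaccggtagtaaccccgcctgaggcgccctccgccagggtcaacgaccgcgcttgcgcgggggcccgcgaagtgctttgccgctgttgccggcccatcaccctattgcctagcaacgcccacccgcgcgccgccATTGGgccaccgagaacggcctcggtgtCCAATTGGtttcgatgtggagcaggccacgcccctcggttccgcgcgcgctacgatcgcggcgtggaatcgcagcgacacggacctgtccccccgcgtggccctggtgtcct
Acly: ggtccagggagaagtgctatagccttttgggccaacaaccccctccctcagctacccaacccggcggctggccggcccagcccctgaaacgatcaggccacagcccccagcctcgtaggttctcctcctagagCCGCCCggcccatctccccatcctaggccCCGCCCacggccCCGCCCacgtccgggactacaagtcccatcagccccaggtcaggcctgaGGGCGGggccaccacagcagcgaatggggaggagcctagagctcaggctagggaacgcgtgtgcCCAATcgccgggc
Elovl5: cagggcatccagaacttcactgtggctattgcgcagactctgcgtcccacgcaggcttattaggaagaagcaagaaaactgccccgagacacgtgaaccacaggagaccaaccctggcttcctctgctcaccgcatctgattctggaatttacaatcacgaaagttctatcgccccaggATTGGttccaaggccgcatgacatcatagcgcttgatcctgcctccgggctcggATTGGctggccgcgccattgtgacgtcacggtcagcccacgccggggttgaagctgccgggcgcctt
Acox3: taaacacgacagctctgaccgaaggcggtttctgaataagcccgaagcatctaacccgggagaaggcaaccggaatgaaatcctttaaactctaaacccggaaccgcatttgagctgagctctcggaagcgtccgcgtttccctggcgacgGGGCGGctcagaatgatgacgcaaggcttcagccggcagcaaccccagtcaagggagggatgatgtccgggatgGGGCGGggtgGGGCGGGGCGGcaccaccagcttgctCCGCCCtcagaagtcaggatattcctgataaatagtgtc

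The Fasn window held 3 CCAAT boxes and 0 GC boxes, with 1 pair of CCAAT boxes overlapping on opposite strands, and the Acly window held 1 CCAAT box and 4 GC boxes. The Elovl5 window held 2 CCAAT boxes and 0 GC boxes, and the Acox3 window 0 CCAAT boxes and 5 GC boxes, of which 1 pair overlapped. In these 4 windows, neither box was present in both genes that rose and absent from both that fell, or the reverse. With 2 genes in each direction, the windows are too few to show whether the boxes differ by direction. RefSeq windows were found for 30 of the 35 members (35 windows); Scd2 had none, and the only window of Acaca lies within the gene, downstream of its first annotated start. Across the windows of synthesis genes, Me1 and Fads2 included, 8 of 14 (57.1%) held a CCAAT box, against 6 of 15 (40.0%) in the oxidation group. The shares were 14 of 17 (82.4%) for sterol synthesis genes and 38.7% of 10483 windows of tested genes. These shares count windows, not genes. Srebf1, Elovl1 and Me1 each gave more than 1 synthesis window, while Scd1, Scd2 and Fads1 gave none. A GC box was in 57.1% of synthesis windows, 80.0% of oxidation windows, 82.4% of sterol synthesis windows and 61.6% of windows of tested genes. A core of the sterol regulatory element (TCACNCCAC, either strand) was found in 0 of 14 synthesis windows and 0 of 15 oxidation windows. The core was in only 1 of 17 (5.88%) sterol synthesis windows and in 1.13% of windows of tested genes. Its absence says only that these letters are not in these 300 bases. Of the member windows, 1 of Acsl1 held the core.

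The largest called change among the members was that of Fasn (ENSMUSG00000025153.9, mm10 chromosome 11, 120805846 to 120824547, minus strand, protein coding), the multienzyme that assembles palmitate. Its level in CPM, which is the count scaled to a common library size after TMM normalization, was 91.8, 120.3 and 138 CPM in Arhgef1-/- libraries 1, 2 and 3, against 63.9, 57.1 and 61.7 CPM in WT libraries 1, 2 and 3. All Arhgef1-/- libraries lay above all WT libraries, and the spread was wider in the knockout (117 ± 23.5 CPM in Arhgef1-/- and 60.9 ± 3.46 CPM in WT, SD, n = 3 each). The log2 fold change was 0.94 ± 0.14 (SE; edgeR adjusted p = 2.61e-04), or 1.92-fold, and Fasn was called under all 15 alternative settings (0.80 to 1.09), including the removal of any 1 library.

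Upstream of Fasn, Acaca (chromosome 11, 84129672 to 84401651, plus strand), the enzyme of the committed step, had 22.5, 31.2 and 24.98 CPM in Arhgef1-/- and 15.3, 15.1 and 18.9 CPM in WT. The groups did not overlap, and the estimate on the log2 scale was 0.68 ± 0.21 (SE; edgeR adjusted p = 0.0470). Acly (chromosome 11, 100476353 to 100528000, minus strand), which supplies the acetyl-CoA, had 130.3, 184 and 132 CPM in Arhgef1-/- and 111, 109 and 109 CPM in WT. Here too no values overlapped, but Arhgef1-/- libraries 1 and 3 stood closer to WT than to Arhgef1-/- library 2; the log2 fold change was 0.44 ± 0.13 (SE; edgeR adjusted p = 0.0342). Both calls were near the threshold. Acly was not called without Arhgef1-/- library 2 (0.25) or without WT library 1 (0.45), 2 (0.43) or 3 (0.44). Acaca was not called without Arhgef1-/- library 2 (0.53) or 3 (0.71), without WT library 1 (0.63), 2 (0.62) or 3 (0.79), with the replicate number as a block (0.67, adjusted p = 0.0740), with upper-quartile scaling (0.65) or with limma-voom (0.68).

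Acss2, which makes acetyl-CoA from acetate, did not pass (8.81 ± 2.97 CPM in Arhgef1-/- and 7.50 ± 1.85 CPM in WT, SD, n = 3 each; edgeR adjusted p = 0.755). Srebf1 itself, the regulator of the group, had 24.9, 19.8 and 16.4 CPM in Arhgef1-/- and 20.3, 27.3 and 17.5 CPM in WT. The groups overlapped throughout; the estimate was -0.10 ± 0.23 on the log2 scale (SE; edgeR adjusted p = 0.860), with a 95% interval of -0.57 to 0.38. Gene counts do not separate the Srebf1 isoforms or show how much of the protein is processed.

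**Figure D2:**
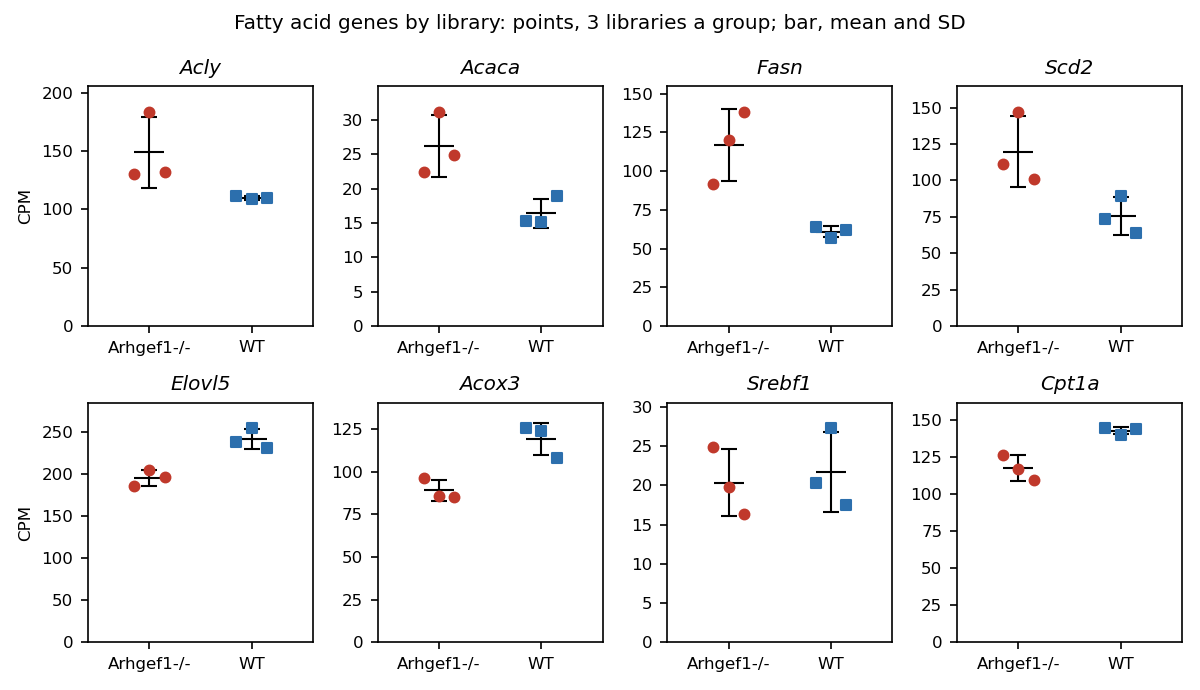
Level in CPM (vertical axis, from 0) of the 6 called members and of Srebf1 and Cpt1a in each library; points are the 3 libraries of a group, and bars the mean and SD. Acly, Acaca, Fasn and Scd2 lie higher in every Arhgef1-/- library than in any WT library, Elovl5, Acox3 and Cpt1a lie lower, and Srebf1 overlaps.

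Among the desaturases, Scd2 and Scd1 encode stearoyl-CoA desaturases that make monounsaturated fatty acids. Scd2 (ENSMUSG00000025203.6, chromosome 19, 44293674 to 44306864, plus strand) had 111, 147 and 101 CPM in Arhgef1-/- and 73.3, 89.5 and 63.8 CPM in WT. All Arhgef1-/- values were above all WT values, and the log2 fold change was 0.67 ± 0.15 (SE; edgeR adjusted p = 0.00746). The call was lost without Arhgef1-/- library 2 (0.49, adjusted p = 0.0626) and without WT library 3 (0.56, adjusted p = 0.0524). Scd1, its neighbour on chromosome 19, had 14.9, 10.7 and 7.50 CPM in Arhgef1-/- and 11.8, 5.87 and 12.1 CPM in WT. These values overlapped (log2 fold change 0.14 ± 0.33, SE; edgeR adjusted p = 0.859), and the interval of -0.56 to 0.84 also holds the estimate of Scd2, so a difference between both genes in their response was not shown. The Scd genes resemble each other, and the sources used here do not say how reads shared between them were counted.

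The delta-5 desaturase gene Fads1 did not pass (19.4 ± 2.08 CPM in Arhgef1-/- and 18.4 ± 3.26 CPM in WT, SD, n = 3 each; edgeR adjusted p = 0.885). Its neighbour Fads2, the delta-6 desaturase gene, was close to undetected in WT: it had 3, 22 and 40 counts in Arhgef1-/- libraries 1, 2 and 3 and 3, 2 and 0 counts in WT libraries. Arhgef1-/- library 1 therefore stood at the WT level, and the higher counts were in libraries 2 and 3. Fads2 was not tested in the filtered fit. It was called in edgeR with no filter on low counts (log2 fold change 3.43, adjusted p = 0.0496). With 1 library left out it passed the filter only through the Arhgef1-/- libraries in which it was high, so those fits are not used for it.

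Of the 3 tested elongase genes 1 was called, and it was lower. Elovl5 (chromosome 9, 77917364 to 77984519, plus strand), which lengthens polyunsaturated fatty acids, had 186, 205 and 197 CPM in Arhgef1-/- and 239, 255 and 231 CPM in WT. All Arhgef1-/- values lay below all WT values, and the fall was small (log2 fold change -0.30 ± 0.09, SE; edgeR adjusted p = 0.0397). It was not called without Arhgef1-/- library 1 (-0.26), 2 (-0.34) or 3 (-0.30), without WT library 1 (-0.31), 2 (-0.26) or 3 (-0.33), with total counts as scaling (-0.27) or with the replicate number as a block (-0.30, adjusted p = 0.0616). Elovl1, an elongase of saturated and monounsaturated very long chains, had 41.8, 47.1 and 43.4 CPM in Arhgef1-/- and 30.8, 35.7 and 32.3 CPM in WT. The groups did not overlap, but Elovl1 did not pass the test (0.42 ± 0.15, SE; edgeR adjusted p = 0.0936). Elovl6, which extends palmitate to stearate, had 4.07, 10.03 and 9.63 CPM in Arhgef1-/- and 3.26, 4.03 and 4.13 CPM in WT. Arhgef1-/- library 1 fell within the WT values and libraries 2 and 3 above them; the gene did not pass (1.06 ± 0.41, SE; edgeR adjusted p = 0.116) and was called only when Arhgef1-/- library 1 was left out (1.37, adjusted p = 0.0318).

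The activation and uptake genes showed no called change. Among the long-chain acyl-CoA synthetases, Acsl4, which prefers arachidonate, had the smallest p, with 125, 109 and 114 CPM in Arhgef1-/- and 101, 112 and 99.1 CPM in WT. The groups overlapped (0.16 ± 0.11, SE; edgeR adjusted p = 0.435). Acsl5 and Acsl1 were measured more precisely, at -0.01 (95% interval -0.20 to 0.19) and 0.00 (-0.25 to 0.25), and the low Acsl3 less so, at 0.18 (-0.71 to 1.07). Fabp5, a cytosolic fatty acid binding protein gene, had 6.98, 5.58 and 8.01 CPM in Arhgef1-/- and 6.23, 2.42 and 4.72 CPM in WT (0.62 ± 0.41, SE; edgeR adjusted p = 0.406). Cd36, the scavenger receptor that takes up fatty acids, had 10.01, 5.07 and 2.64 CPM in Arhgef1-/- and 6.13, 5.99 and 6.84 CPM in WT. The WT libraries agreed closely while the Arhgef1-/- libraries ran both above and below them (-0.11 ± 0.43, SE; edgeR adjusted p = 0.921). Arhgef1-/- library 1, highest in Cd36, was also highest of the Arhgef1-/- libraries in several marker sums. These were macrophage markers (705, 558 and 562 CPM in libraries 1, 2 and 3) and monocyte and neutrophil markers (35.9, 2.38 and 8.44 CPM). They also included type-1 dendritic cell markers (167, 88.1 and 91.4 CPM) and T and NK cell markers (52.7, 30.5 and 33.2 CPM). B cell markers were instead highest in library 3 (462, 456 and 516 CPM), and cycling and cDC2 defining markers were lowest in library 1. In WT, with Cd36 at 5.99 to 6.84 CPM, macrophage markers summed to 1050 to 1508 CPM and monocyte and neutrophil markers to 7.43 to 9.77 CPM. Type-1 dendritic cell markers summed to 109 to 147 CPM in WT, and T and NK cell markers to 29.3 to 39.0 CPM. The part of these markers in the Cd36 values was not tested.

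In the oxidation group, Cpt1a, the outer-membrane carnitine palmitoyltransferase that gates entry into mitochondria, had 126, 117 and 109 CPM in Arhgef1-/- and 144, 139.8 and 144 CPM in WT. Every Arhgef1-/- value was below every WT value, but the difference did not pass the test (-0.28 ± 0.10, SE; edgeR adjusted p = 0.0983), nor under any of the 15 alternatives (adjusted p from 0.0526 to 0.248). Cpt2, its partner in the inner membrane, was low and variable (8.55 ± 4.37 CPM in Arhgef1-/- and 8.30 ± 1.03 CPM in WT, SD, n = 3 each).

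The acyl-CoA dehydrogenases, which start each round of oxidation, did not pass in either direction. Acadl, for long chains, had 70.9, 81.0 and 62.3 CPM in Arhgef1-/- and 60.8, 57.8 and 59.1 CPM in WT. The groups did not overlap, and the log2 fold change was 0.27 ± 0.13 (SE; edgeR adjusted p = 0.244). The medium-chain gene Acadm stood at -0.23 ± 0.15 and the very-long-chain gene Acadvl at 0.30 ± 0.16 (SE; edgeR adjusted p = 0.407 and 0.268). In the annotation 42.9% of the exon length of Acadvl overlaps Dvl2 on the opposite strand. With no strand setting stated, reads of both genes there cannot be told apart; Dvl2 had 12.2 CPM in Arhgef1-/- and 10.99 CPM in WT.

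Of the genes for the following steps, Echs1, the short-chain enoyl-CoA hydratase, had 10.2, 11.8 and 12.3 CPM in Arhgef1-/- and 21.5, 11.9 and 10.7 CPM in WT. WT library 1 alone stood high, and the groups otherwise coincided (-0.36 ± 0.28, SE; edgeR adjusted p = 0.506). Hadha and Hadhb, the subunits of the mitochondrial trifunctional protein, were at 0.11 and -0.05, with 95% intervals of -0.13 to 0.35 and -0.63 to 0.52. The short-chain dehydrogenase gene Hadh was at 0.10 (-0.80 to 0.998). Eci1, one of the enoyl-CoA isomerase genes needed for unsaturated chains, had 3.38, 7.03 and 2.39 CPM in Arhgef1-/- and 3.93, 2.88 and 9.79 CPM in WT, too variable to show a difference (interval -1.45 to 0.71). Eci2 and the dienoyl-CoA reductase gene Decr1 were at 0.09 (-0.25 to 0.44) and -0.10 (-0.51 to 0.30).

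Acox3 (ENSMUSG00000029098.17, chromosome 5, 35583040 to 35615352, plus strand), a peroxisomal acyl-CoA oxidase, was the only oxidation gene called. It had 96.3, 85.8 and 84.9 CPM in Arhgef1-/- and 125, 124 and 108 CPM in WT, with no overlap between the groups. It fell to 74.8% of the WT mean (log2 fold change -0.42 ± 0.11, SE; edgeR adjusted p = 0.0232). The call was lost without Arhgef1-/- library 2 (-0.40) or 3 (-0.39) and without WT library 1 (-0.38) or 2 (-0.39). In the annotation 6.08% of the exon length of Acox3 overlaps an antisense gene. Etfdh, which passes electrons from the flavoprotein to ubiquinone, had 40.2, 35.2 and 44.3 CPM in Arhgef1-/- and 32.3, 23.7 and 27.1 CPM in WT. The values did not overlap, yet Etfdh did not pass in edgeR (0.52 ± 0.17, SE; adjusted p = 0.0645); it was called by DESeq2 (adjusted p = 0.0394) and with total counts as scaling (0.56, adjusted p = 0.0482). The flavoprotein subunit genes Etfa and Etfb were at -0.01 (-0.27 to 0.26) and -0.07 (-0.50 to 0.37). In the annotation 53.0% of the exon length of Etfb overlaps Gm45233 on the same strand. Gm45233 was not among the symbols of the count table, and the annotation used for counting is not stated. Whether reads there were counted for Etfb is therefore not known, which leaves the Etfb level uncertain.

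Levels per kilobase of exon put the changes on one scale. Elovl5 stood highest of the 33 members in both genotypes, at 55.6 ± 2.69 CPM per kb in Arhgef1-/- and 68.6 ± 3.404 in WT (SD, n = 3 each). The next were Etfa (43.2 in Arhgef1-/- and 43.4 in WT), Acsl5 (41.1 and 41.3) and Acadl (35.6 and 29.5), and in WT the Etfa and Acsl5 levels differed by less than the SD of Etfa (5.89). Fasn ranked 13 in Arhgef1-/- and 18 in WT (10.7 ± 2.14 and 5.56 ± 0.32 CPM per kb), and Scd2 ranked 7 and 10 (21.9 ± 4.44 and 13.8 ± 2.37). Acly, at 28.2 ± 5.74 and 20.8 ± 0.26 CPM per kb in Arhgef1-/- and WT, was the most abundant member of the cytosolic pathway, while Acaca was among the lowest of all members (1.54 ± 0.26 and 0.96 ± 0.12). Exon length is the union over all annotated transcripts, so genes with long, little-used exons are understated.

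**Figure D3:**
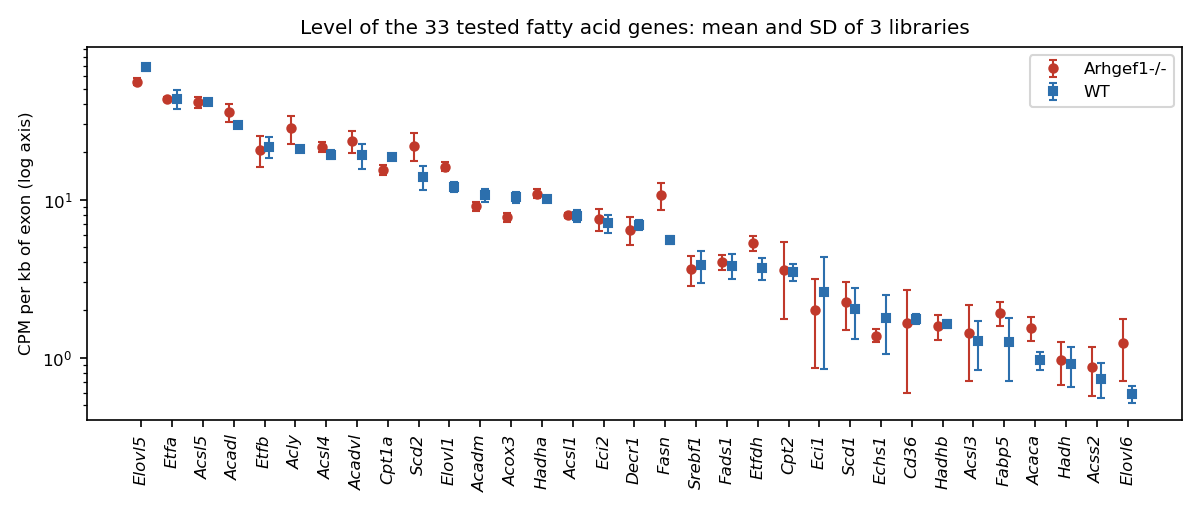
Level per kilobase of exon (vertical log axis, CPM per kb) of the 33 tested members, ordered by the WT mean; points are means and bars the SD of 3 libraries per genotype. Elovl5, Etfa, Acsl5 and Acadl lead in both genotypes, and Fasn shows a wider gap between genotypes than its neighbours in the order.

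Set side by side in each library, the mean log2 CPM of the 11 tested synthesis genes was 5.09, 5.34 and 5.08 in Arhgef1-/- and 4.77, 4.80 and 4.81 in WT. That of the 16 oxidation genes was 4.90, 4.88 and 4.79 in Arhgef1-/- and 4.94, 4.78 and 4.94 in WT. Synthesis means did not overlap between genotypes, and oxidation means did. The synthesis minus oxidation difference was 0.19, 0.46 and 0.29 in Arhgef1-/- and -0.16, 0.03 and -0.13 in WT, 0.40 higher on average in Arhgef1-/-. No test is given, since the groups of genes were chosen with earlier results known.

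**Figure D4:**
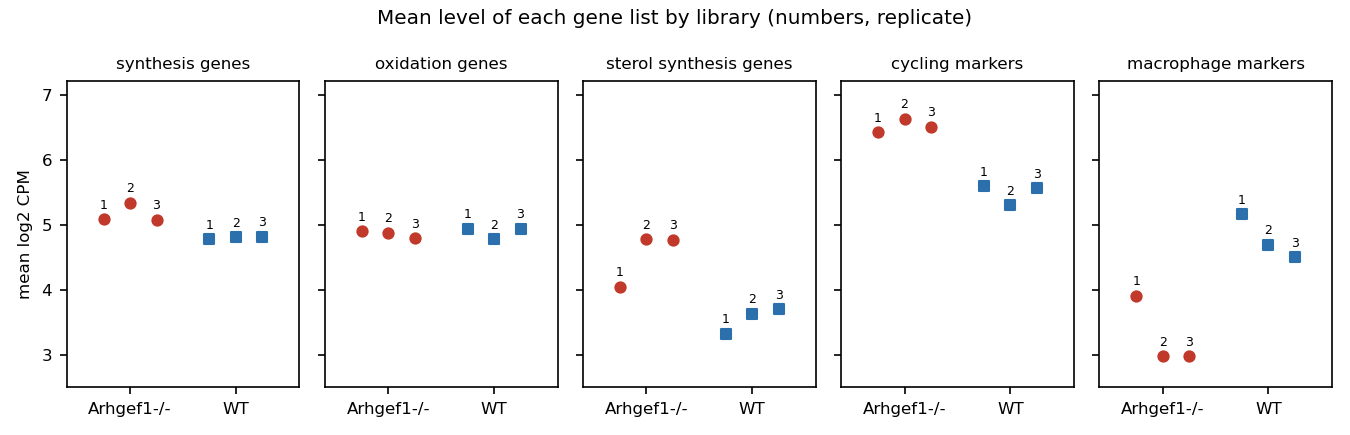
Mean log2 CPM (vertical axis) of the synthesis genes, the oxidation genes, sterol synthesis genes, cycling markers and macrophage markers in each library, numbered by replicate. Synthesis, sterol and cycling genes lie higher in every Arhgef1-/- library than in any WT library, macrophage markers lie lower, and the oxidation genes overlap (4.79 to 4.90 in Arhgef1-/- and 4.78 to 4.94 in WT).

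Other groups of genes moved over the same libraries, and their part in the fatty acid results was not tested. Cycling markers were higher in Arhgef1-/-, with 19 of 20 called, and summed to 3950 to 4582 CPM in Arhgef1-/- and 1829 to 2268 CPM in WT. In bulk libraries a larger share of cycling cells and more of these RNAs per cell cannot be told apart. Macrophage markers were lower, with 14 of 19 called, and summed to 558 to 705 CPM in Arhgef1-/- and 1050 to 1508 CPM in WT. Of the 19 tested, 18 had a negative log2 fold change and 1 a positive one (0.11). Vsig4, a listed macrophage marker that did not pass the filter, had 4 to 10 counts in WT and 0 in every Arhgef1-/- library. Of the cDC2 defining markers 6 of 12 were called lower and 0 higher, by edgeR and by DESeq2; they summed to 15478 to 16606 CPM in Arhgef1-/- and 18416 to 20600 CPM in WT, and Clec10a, at 0 to 11 counts, did not pass the filter. Among markers of adipocytes and stroma, Col1a1 was at 0 in all 6 libraries and Cidec at 0 to 3 counts. In the same list, Pecam1 had 1077 to 1150 counts in Arhgef1-/- and 1225 to 1346 in WT, and Cdh5 had 9 to 40 and 6 to 52. The list summed to 102 to 130 CPM in Arhgef1-/- and 120 to 165 CPM in WT. Arhgef1 itself was at 129 CPM in Arhgef1-/- and 284 CPM in WT (log2 fold change -1.13 ± 0.11, SE; edgeR adjusted p = 6.96e-06), so 45.5% of the WT level remained. The deleted exons are not stated in the labels, and counts per gene cannot show whether they were missing. All Arhgef1-/- libraries came from 1 sequencing lane and all WT libraries from another, per the labels, so lane and genotype cannot be told apart.

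Further genes of the same pathways came from lists made by function, holding 110 tested genes besides the members. Of these 16 were called higher and 5 lower, while 9.67% of all tested genes were called. The share called was 61.9% for sterol synthesis genes and 16.7% for SREBP processing and partner genes. It was 21.4% for glycerolipid synthesis genes and 10% for PPAR regulators and targets. For other synthesis genes it was 7.14%, and for other oxidation genes 3.23%. The PPAR list includes the members Cpt1a, Acadl and Cd36, which are not among the 110 genes, and shares Slc25a20 with the other oxidation list. Most of the higher calls, 13, were sterol synthesis genes (13 of 21 tested, median 1.10), among them Hmgcs1, which encodes the synthase that precedes the rate-limiting reductase, and Sqle, which encodes squalene epoxidase, at 1.51 ± 0.18 and 1.85 ± 0.25 on the log2 scale (SE; edgeR adjusted p = 4.75e-05 and 1.34e-04). These are known targets of SREBP-2, whose gene Srebf2 rose to 247, 295 and 269 CPM in Arhgef1-/-, against 189, 207 and 196 CPM in WT (0.45 ± 0.09, SE; edgeR adjusted p = 0.00407), with no overlap. Among the 12 tested SREBP processing and partner genes the other call was a fall of Nr1h3, which encodes the oxysterol receptor LXR-alpha, with 1.98, 3.62 and 0.94 CPM in Arhgef1-/- and 8.05, 4.95 and 9.44 CPM in WT (-1.79 ± 0.50, SE; edgeR adjusted p = 0.0294). The Nr1h3 call was lost without Arhgef1-/- library 1 (-1.73) or 3 (-1.40) and without WT library 1 (-1.73) or 3 (-1.58). Macrophage markers fell in the same libraries. Insig1 (0.70, adjusted p = 0.0574) did not pass, and was named after its value was seen.

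Of 14 other synthesis genes 1 was called, Tecr, the reductase that completes each elongation cycle, at 135, 124 and 164 CPM in Arhgef1-/- and 97.6, 88.5 and 119.6 CPM in WT (0.47 ± 0.13, SE; edgeR adjusted p = 0.0293). Its call was lost without Arhgef1-/- library 3 (0.34) and without WT library 1 (0.44) or 2 (0.38). Of 14 glycerolipid synthesis genes 3 were called, all lower: the lysophospholipid acyltransferase genes Lpcat2 (-0.58 ± 0.12) and Agpat4 (-0.55 ± 0.13) and the phosphatidate phosphatase gene Lpin2 (-0.32 ± 0.09, each with its SE; edgeR adjusted p = 0.00562, 0.0142 and 0.0363). Agpat4 was not called without WT library 2 (-0.49) or 3 (-0.52), and Lpin2 with total counts as scaling (-0.29), with the replicate number as a block (-0.32), without Arhgef1-/- library 1 (-0.27) or 3 (-0.32) or WT library 1 (-0.35), 2 (-0.30) or 3 (-0.31).

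Of 31 other oxidation genes 1 was called. This was Acaa1a, a peroxisomal thiolase gene, with 22.7, 22.3 and 21.6 CPM in Arhgef1-/- and 30.1, 34.4 and 37.4 CPM in WT (-0.61 ± 0.17, SE; edgeR adjusted p = 0.0326), a call that was lost when any 1 library was left out (-0.69 to -0.54) and with the replicate number as a block (-0.61). Both called oxidation genes, Acox3 and Acaa1a, act in peroxisomes and both fell. Hsd17b4, the peroxisomal bifunctional enzyme gene, did not pass (0.14, edgeR adjusted p = 0.452) and was named after its value was seen. Among 10 tested PPAR regulators and targets, Ppargc1a, which encodes the coactivator PGC-1alpha, was the only call, at 20.5, 19.2 and 12.4 CPM in Arhgef1-/- and 9.39, 7.60 and 10.4 CPM in WT (0.92 ± 0.27, SE; edgeR adjusted p = 0.0382). It was lost without Arhgef1-/- library 1 (0.79) or 2 (0.84) and without WT library 1 (0.95), 2 (0.81) or 3 (1.02), with limma-voom (0.86) and with the replicate number as a block (0.91). Of 12 other activation, uptake and lipid store genes 0 were called by edgeR; 1 was higher and 3 lower at an unadjusted p under 0.05, DESeq2 called 2 lower, and limma-voom 1 lower.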

How the data were processed

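The table the authors deposited holds unnormalized counts, whole reads per gene symbol in each of the 6 libraries. Per the submitters' processing notes, the tools were STAR, HTSeq and DESeq2 and the build mm10; their versions, the annotation and the strand setting were not found in the sources used here. Genotype and replicate came from the titles.

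Counts were tested across all genes with edgeR 4.0.16 in R 4.3.3: filterByExpr, TMM scaling (factors 0.977 to 1.02), a quasi-likelihood fit with genotype as its only term, and Benjamini-Hochberg adjustment over 11504 genes. SEs and 95% intervals came from the fold change and its F statistic. CPM is the count scaled to the TMM-adjusted library size; mean log2 CPM used a prior count of 2. The procedure was tested on simulated data. Replicates within a group differed by more than sampling noise (chi-square per gene 8.14 to 14.0).

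Positions and exon lengths came from GENCODE vM21 (mm10), promoters from RefSeq. Alternatives were other scalings, filters and tools (DESeq2 1.42.0, limma-voom 3.58.1), 50 abundant genes left out, a replicate block and each library left out. Members, lists and tests were chosen with earlier results of these data known. Values per library were given for called members, the smallest p of each of 11 roles, Srebf1, Scd1, Cd36 and, by choice, Elovl1, Elovl6 and Fads2; in the other lists up to 4 called genes were named, and some genes are not reported here.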

Additional observations from a re-analysis of the deposited data

How the results depend on the processing

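With each library left out in turn, 1 to 6 members were called higher and 0 to 1 lower. The 6 came without Arhgef1-/- library 1 and held Fads2, which passed the filter there only through libraries in which it was high. Fads2 is not used as a result of that fit, and the rest were Acly, Acaca, Fasn, Scd2 and Elovl6. In the synthesis group, with the same 6 genes at its maximum, 1 to 6 were higher and 0 to 0 lower. In the oxidation group 0 to 0 were higher and 0 to 1 lower, and in the other pathway lists 11 to 19 were higher and 2 to 5 lower. Over all genes these counts ran from 310 to 583 higher and 264 to 489 lower. With total counts in place of TMM 1 member was called lower, 0 synthesis genes were lower and 1 oxidation gene was higher. DESeq2 called 1 oxidation gene higher and 8 other pathway genes lower. Replicate numbers are shared by both genotypes, but same-numbered libraries did not deviate together (r = 0.0382, -0.0326 and -0.033 over 11504 genes), and 1 of 3 Arhgef1-/- libraries correlated best with its own number. With the replicate block 3 members were called higher and 1 lower, 0 synthesis genes were lower, and 496 and 449 of all genes were higher and lower. No member reversed with a call under any alternative. The synthesis minus oxidation difference was 0.39 to 0.40 with other prior counts or total counts, and 0.32 to 0.46 with each library left out, which was added after seeing the data. The cause of each change of call was not tested. The 95% intervals were wide for some members, at -1.45 to 0.71 for Eci1 and -1.01 to 0.79 for Cd36; counting error and spread between libraries were not separated.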

Other observations

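Several lipid genes at low counts had large fold changes that did not pass the test in edgeR; they are named here after their values were seen. The elongase gene Elovl7 stood at 4.66, 6.31 and 0.51 CPM in Arhgef1-/- and 1.34, 0.92 and 0.59 CPM in WT (log2 fold change 1.97, adjusted p = 0.112), so that Arhgef1-/- library 3 lay below all WT libraries. Mboat1, a lysophospholipid acyltransferase gene, stood at 4.31, 9.10 and 11.1 CPM in Arhgef1-/- and 4.02, 2.42 and 3.77 CPM in WT (1.26, adjusted p = 0.0661). In the other direction, Slc27a2, which encodes a fatty acid transport protein, stood at 2.56, 5.17 and 1.36 CPM in Arhgef1-/- and 8.81, 7.48 and 7.79 CPM in WT (-1.41, adjusted p = 0.0561). The lipoprotein lipase gene Lpl stood at 3.26, 0.62 and 1.54 CPM in Arhgef1-/- and 5.65, 4.72 and 3.77 CPM in WT (-1.40, adjusted p = 0.149). Slc27a2, Lpl and Mboat1 had no overlap between genotypes, as did 27.2% of all tested genes. Summed macrophage markers were 558 to 705 CPM in the Arhgef1-/- libraries and 1050 to 1508 CPM in the WT libraries, and their part in the values of Slc27a2 and Lpl was not tested.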
